A study of Homo sapiens with 12 samples.

Results

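The 53 genes described here make or regulate the DNA replication machinery, together with cyclin E and E2F genes of the transition from G1 into S phase. They were chosen by symbol from a list, with no measured value in the rule but with earlier results of these data known. All 53 were among the 26334 genes in the counts of read pairs per gene. The libraries came from A549, a human lung adenocarcinoma line, infected with lentivirus that carried a control hairpin (shControl) or a hairpin against RNF113A (shRNF113A) and selected with 1 ug/ml puromycin for 4 days. Each of these was left untreated or given Cisplatin at 25 ug/ml for 20 h, which makes 4 conditions with 3 replicates each. The unit of the dose is that of the labels, and for other assays the study's methods give Cisplatin doses in uM. All groups therefore share the infection and the puromycin selection, and depletion rests on the hairpin construct that the label names and not on a deletion. RNF113A is a component of the spliceosome with a RING domain, and Cisplatin forms platinum adducts that crosslink bases of DNA. The comparisons asked how Cisplatin and RNF113A depletion, alone and together, changed the level of these transcripts and the share of their reads that lay in introns.

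Replication origins are licensed in G1, when ORC, CDC6 and CDT1 load the MCM helicase rings onto DNA and geminin (GMNN) later keeps them from being loaded again. Helicases are switched on in S phase by CDC45 and GINS, DNA polymerase alpha with primase starts each new strand, and polymerases epsilon and delta extend it with the PCNA clamp, which RFC complexes load. Most of these genes are transcribed under the control of E2F factors, which are released from RB family proteins as cyclin-dependent kinases, that of cyclin E among them, become active. E2F7 and E2F8 are repressors in the same family, and E2F7 and PCNA are also known p53 targets.

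Library depth was 33859097 to 56071514 read pairs, of which 26220526 to 45721152 were assigned to a gene. The 3 Cisplatin-treated depleted libraries were the smallest, with 29590747, 30806147 and 26220526 assigned pairs. RNF113A itself, in counts normalized by size factors and given in the order of replicates 1, 2 and 3 as throughout, read 743, 709 and 725 in untreated control cells and 555, 573 and 612 in untreated depleted cells. With Cisplatin it read 1143, 1047 and 997 in control and 911, 856 and 1051 in depleted cells, so that those libraries overlapped. Depletion lowered RNF113A transcripts by 0.31 ± 0.09 (SE, adjusted p = 0.0247) on the log2 scale without Cisplatin, while the difference with Cisplatin was -0.14 ± 0.09 (SE, adjusted p = 0.233). Epithelial markers of A549 such as KRT8, a keratin, were detected in every library, whereas PTPRC and CD3E of leukocytes read at most 4.64 normalized counts. Summed over 11 leukocyte, endothelial and fibroblast markers, of which 5 passed the filter on low counts, the level was 287 to 1474. These markers also moved with the groups, and their part in the results was not tested. The 9 A549 markers were KRT8, KRT18, KRT19, CDH1 and EPCAM with the enzyme genes NQO1, AKR1C1, AKR1B10 and ALDH1A1. Of these 9, 7 fell with Cisplatin. With depletion 5 fell and 2 rose, 2 each way past 2-fold, over a range of -1.62 to 3.16. Of the 5 other markers tested 1 fell with Cisplatin, and with depletion 2 rose and 1 fell, all past 2-fold. Over all 15352 genes tested, 32.1% fell and 34.8% rose with Cisplatin, and 24% fell and 23.5% rose with depletion. Past 2-fold, 5.52% fell and 5.47% rose with depletion.

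Control libraries numbered 2, both untreated and Cisplatin-treated, stood apart from the others of their conditions. Comparing the counts of each pair of replicates over genes, the chi-square per degree of freedom was 96 and 88.1 for the pairs with untreated control library 2 but 11.9 for the other untreated pair. It was 63.5 and 63.7 for the pairs with Cisplatin-treated control library 2 but 8.17 for the other pair, and 4.06 to 18.1 among depleted libraries. COL1A1, a collagen of fibroblasts, read 215, 1269 and 259 in untreated control cells, and KRT8 read 242051, 129778 and 232070.0 there. The counts of the 53 genes in each comparison of expression and of the intronic ratio are therefore given with and without these 2 libraries. Counts by role, promoter word or length and those of other gene lists are with all libraries, as are retained introns, whose libraries carry no number. Leaving these 2 out is an alternative chosen after the values had been seen. Where fits leave out a single library, counts come without the share of all genes and show only how far they move. No pair of replicates differed by less than the sampling noise.

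Promoters of 45 of the 53 genes were found in a RefSeq table (GRCh38.p14, 250 bases before to 50 after the start of each gene). A match to any of 4 E2F words, TTTCCCGC, TTTGGCGC, TTTGCCGC or TTTCGCGC on either strand, which may overlap one another, was present in 22 of the 45, or 48.9%. The share was 5.05% of the 11024 promoters of genes that passed the expression filter and 3.32% of all 35116. By role, 6 of 8 licensing promoters, 3 of 5 of helicase activation and 4 of 7 of polymerases and primase held a word, against 1 of 4 of nucleotide supply. It was 2 of 6 for the clamp and its loaders, 1 of 4 for chromatin assembly and histone mRNA and 0 of 1 for RPA. Cyclin E and E2F genes and fork genes each had 2 of 4, and lagging strand genes 1 of 2. Among other lists, 5 of 29 promoters of further replication genes, 3 of 20 of G2/M genes and 1 of 7 of p53-linked arrest genes held a word. Sequences are printed for the gene with the largest fall under Cisplatin (MCM6), for E2F1 itself and for 2 genes that rose (PCNA and E2F7), 5′ to 3′ along the gene with E2F words in capitals. Those of MCM6 (chr2:135876394-135876693, minus strand), E2F1 (chr20:33686336-33686635, minus strand), PCNA (chr20:5126573-5126872, minus strand) and E2F7 (chr12:77065520-77065819, minus strand) were as follows.
MCM6: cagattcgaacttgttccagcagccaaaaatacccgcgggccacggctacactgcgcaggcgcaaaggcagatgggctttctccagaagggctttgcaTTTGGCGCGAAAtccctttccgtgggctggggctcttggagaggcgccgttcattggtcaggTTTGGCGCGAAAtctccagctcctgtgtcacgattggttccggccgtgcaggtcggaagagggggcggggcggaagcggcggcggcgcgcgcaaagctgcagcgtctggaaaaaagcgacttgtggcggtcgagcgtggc
E2F1: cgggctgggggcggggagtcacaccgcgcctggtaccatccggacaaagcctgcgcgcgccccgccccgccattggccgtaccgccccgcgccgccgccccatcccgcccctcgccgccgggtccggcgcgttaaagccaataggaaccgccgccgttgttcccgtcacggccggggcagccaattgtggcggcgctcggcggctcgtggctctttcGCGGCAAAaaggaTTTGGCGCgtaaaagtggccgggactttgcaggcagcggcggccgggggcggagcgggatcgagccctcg
PCNA: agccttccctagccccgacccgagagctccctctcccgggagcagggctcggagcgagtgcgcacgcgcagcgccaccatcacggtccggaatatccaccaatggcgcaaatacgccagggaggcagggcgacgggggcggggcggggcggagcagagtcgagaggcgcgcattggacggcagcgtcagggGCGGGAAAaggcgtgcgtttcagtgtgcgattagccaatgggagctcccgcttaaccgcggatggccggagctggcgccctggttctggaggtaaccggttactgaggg
E2F7: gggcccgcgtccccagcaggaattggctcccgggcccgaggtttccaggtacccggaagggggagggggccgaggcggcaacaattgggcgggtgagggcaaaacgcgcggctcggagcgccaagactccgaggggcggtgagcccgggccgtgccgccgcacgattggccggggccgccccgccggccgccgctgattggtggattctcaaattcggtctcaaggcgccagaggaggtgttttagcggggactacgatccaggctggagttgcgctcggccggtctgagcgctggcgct
In MCM6 the capitals mark 2 runs of overlapping words on opposite strands, beginning 152 and 90 bases before the start. E2F1 held 2 words, 33 and 20 bases before its start, PCNA held 1, 59 bases before its start, and E2F7 held none in this window. CCAAT, a word bound by the factor NF-Y, was present on either strand in 26 of the 45 promoters, against 35.8% of the promoters of expressed genes. Other lists held it as well, with 17 of 20 promoters of G2/M genes, 17 of 29 of further replication genes and 4 of 7 of p53-linked arrest genes. TTTGAA, the core of the CHR element of late cell cycle genes, was found in 1 of the 45 but in 14 of 20 promoters of G2/M genes, against 9.68% of those of expressed genes.

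Per kilobase of exon, the replication genes of untreated control cells ranged from 113 mean normalized counts for CCNE2 to 18121 for PCNA. After PCNA came TYMS with 6024, TK1 with 5451 and MCM7 with 4706, while E2F7 with 201, E2F2 with 243 and E2F8 with 276 lay near the low end. PRIM2 had no exon length in the annotation used and is left out of this order. Its counts are also less certain than the others, because near-identical sequence elsewhere in hg19 can take its reads. Summed over the 53 genes, normalized counts were 221721 to 278408 in untreated control cells, 190534 to 215505 with Cisplatin, 228155 to 238577 in untreated depleted cells and 170281 to 172445 in Cisplatin-treated depleted cells.

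Cisplatin lowered most of the replication genes. In a model with both drug and depletion, 38 of the 53 fell and 3 rose at an adjusted p under 0.05, and the median log2 fold change was -0.50. Over all 15352 genes tested, 32.1% fell, 34.8% rose, and the median was 0.03. With at least a 2-fold change, 11 fell and 1 rose, against 11.2% and 10.3% of all genes. At an adjusted p under 0.05 alone, leaving out both control libraries numbered 2 gave 42 lower and 3 higher, against 34.1% and 37.9% of all genes. In these bulk samples, fewer cells in S phase and less RNA of a gene per cell cannot be told apart.

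**Figure D1:**
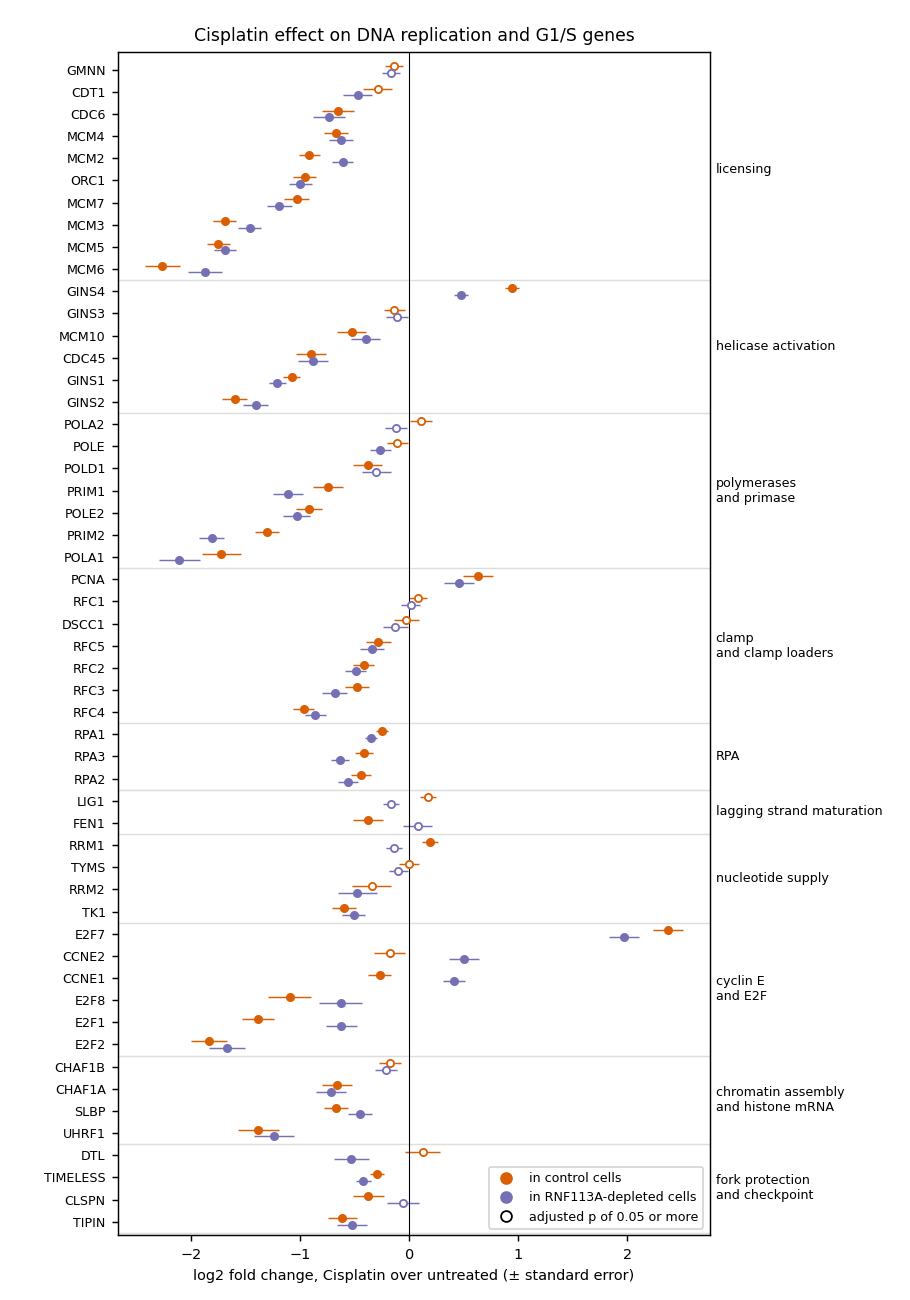
Log2 fold change of each of the 53 genes with Cisplatin over untreated, grouped by role, in control cells (orange) and RNF113A-depleted cells (purple), with bars for the standard error and open circles where the adjusted p was 0.05 or more. MCM6 lies farthest to the left in control cells (-2.27) and POLA1 in depleted cells (-2.11), and E2F7 lies farthest to the right in both, with 2.37 and 1.97.

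All 10 licensing genes fell, with a median of -0.87 and a range from -2.07 to -0.15. MCM6, a subunit of the helicase ring at chr2:136597196-136633996, minus strand (hg19, as for every gene below), read 11274, 6456 and 9389 in untreated control cells, 1996, 1698 and 1882 in Cisplatin-treated control cells, 6519, 6116 and 6706 in untreated depleted cells and 1748, 1745 and 1613 in Cisplatin-treated depleted cells. Every Cisplatin-treated library lay below every untreated one, and in the additive model MCM6 fell by 2.07 ± 0.12 (SE, adjusted p = 6.37e-09). The other ring subunits did not fall equally far, with MCM5 at -1.72, MCM3 at -1.58, MCM7 at -1.11, MCM2 at -0.77 and MCM4 at -0.65. MCM5 read 7953, 5995 and 7959.7 in untreated and 2275, 2108 and 2051 in Cisplatin-treated control cells, and 5640.1, 5751 and 5627 and 1640.3, 1648 and 1829.7 in depleted cells. The loaders ORC1 (-0.98), CDC6 (-0.70) and CDT1 (-0.38) also fell. GMNN, the inhibitor of loading, fell by 0.15 ± 0.06 (SE, adjusted p = 0.0334), and this call was lost in 6 of the 12 fits that left out 1 library, with an adjusted p of up to 0.0842.

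Among the 6 genes of helicase activation 4 fell, 1 rose and GINS3 did not pass. GINS2, a subunit of the GINS complex, read 3366, 2570.1 and 3630.5 in untreated control cells, 1116, 948 and 1049.7 in Cisplatin-treated control cells, 2035, 1968 and 2170.5 in untreated depleted cells and 777, 770.5 and 704 in Cisplatin-treated depleted cells. It fell by 1.51 ± 0.09 (SE, adjusted p = 5.28e-09), and GINS1 by 1.14, with treated and untreated libraries apart in both cell types. GINS4, the fourth subunit of the same complex, went the other way, with 2972, 2731 and 2868 in untreated control cells, 5453, 5738 and 5147 in Cisplatin-treated control cells, 2931, 2901 and 2981 in untreated depleted cells and 3895, 3858 and 4136 in Cisplatin-treated depleted cells. Its Cisplatin-treated libraries were all above the untreated ones, and the rise was 0.71 ± 0.08 (SE, adjusted p = 3.37e-06). CDC45 (-0.89) and MCM10 (-0.46), both needed to switch on the helicase, fell.

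Polymerase and primase genes fell in 6 of 7 cases, with a median of -0.93. POLA1, the catalytic subunit of polymerase alpha at chrX:24712036-25015103, plus strand, read 3292, 1875 and 2858 in untreated control cells, 750.5, 834 and 814 in Cisplatin-treated control cells, 2495, 2355 and 2422 in untreated depleted cells and 553, 649 and 431 in Cisplatin-treated depleted cells. It fell by 1.91 ± 0.14 (SE, adjusted p = 4.35e-08), with no overlap between treated and untreated libraries. The primase subunits PRIM2 (-1.55) and PRIM1 (-0.93) and the epsilon subunit POLE2 (-0.98) fell as well. POLD1, the catalytic subunit of polymerase delta, and POLE, that of epsilon, fell less, by 0.34 and 0.19. The call of POLE was lost in 5 of the 12 fits without 1 library, and POLA2, the accessory subunit of polymerase alpha, did not pass.

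Of the clamp and its loaders 4 of 7 fell and PCNA rose. PCNA, at chr20:5095599-5107272, minus strand, read 23993, 32683 and 23291 in untreated control cells, 38869.7, 48551 and 34851 in Cisplatin-treated control cells, 20878, 20401 and 22414 in untreated depleted cells and 27648, 28241 and 28874 in Cisplatin-treated depleted cells, a rise of 0.54 ± 0.10 (SE, adjusted p = 0.000234). Control libraries numbered 2 were the highest of their conditions. RFC4, a clamp loader subunit, fell by 0.92 ± 0.07 (SE, adjusted p = 7.02e-08), from 2738, 2147 and 2644 to 1297, 1304 and 1199.7 in control cells and from 2308, 2147 and 2518 to 1248, 1195 and 1273 in depleted cells. RFC3, RFC2 and RFC5 fell by 0.58, 0.46 and 0.31. RFC1, the large subunit that belongs to the main clamp loader alone, and DSCC1, of the loader that acts in cohesion, did not pass.

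All 3 subunits of RPA, which coats single-stranded DNA, fell, RPA3 by 0.53 ± 0.07 (SE, adjusted p = 1.15e-05), RPA2 by 0.50 and RPA1 by 0.30. RPA3 read 1911, 1904 and 2143 in untreated control cells, 1483, 1465 and 1472 in Cisplatin-treated control cells, 1613, 1417 and 1716 in untreated depleted cells and 948, 1026 and 983 in Cisplatin-treated depleted cells. Its lowest values were thus those of depleted cells with Cisplatin. FEN1 and LIG1, the nuclease and ligase that join Okazaki fragments, did not pass. In nucleotide supply, thymidine kinase TK1 fell by 0.56 ± 0.08 (SE, adjusted p = 1.96e-05) and the ribonucleotide reductase subunit RRM2 by 0.41, whereas TYMS, thymidylate synthase, and RRM1 did not pass. TK1 read 9656, 7827 and 11083 in untreated control cells, 6059, 6652 and 5939 in Cisplatin-treated control cells, 7618, 7995 and 8039 in untreated depleted cells and 5281, 5096 and 5719 in Cisplatin-treated depleted cells. Replicate 2 of untreated control cells lay near the depleted libraries, and every treated library was lower.

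Cyclin E and E2F genes held both the largest rise and large falls. E2F7, at chr12:77415027-77459360, minus strand, read 1415, 871 and 1251 in untreated control cells, 6136, 5614 and 6334 in Cisplatin-treated control cells, 1180.1, 1196 and 1147 in untreated depleted cells and 4442, 4280.2 and 4664 in Cisplatin-treated depleted cells. It rose by 2.17 ± 0.11 (SE, adjusted p = 1.95e-09), with all treated libraries above all untreated ones. E2F2 and E2F1, activators that drive S phase genes, fell by 1.76 and 1.01, and the repressor E2F8 fell by 0.86. CCNE1 and CCNE2, the cyclins E, did not pass in this model and are described with depletion.

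The 4 genes of chromatin assembly and histone mRNA all fell. UHRF1, which carries DNA methylation over to new strands, read 2709, 1483 and 2600.3 in untreated and 921, 778 and 872 in Cisplatin-treated control cells, and 2527, 2989 and 2547 and 1204, 1105 and 992 in depleted cells. Its fall was 1.31 ± 0.13 (SE, adjusted p = 8.29e-07). CHAF1A, a subunit of the histone chaperone CAF-1, fell by 0.69, and SLBP, which binds the stem loop of histone mRNA, by 0.57. CHAF1B fell by 0.20, a call lost in 6 of the 12 fits without 1 library. At the fork, TIPIN fell by 0.57 ± 0.10 (SE, adjusted p = 0.000127) and its partner TIMELESS by 0.36. TIPIN read 1852, 1235 and 1864 in untreated control cells, 1145, 980.1 and 1075 in Cisplatin-treated control cells, 1629, 1444 and 1681 in untreated depleted cells and 1121, 1057 and 1015 in Cisplatin-treated depleted cells, and every treated library lay below every untreated one. DTL, a receptor of the ubiquitin ligase that degrades CDT1, and CLSPN, the mediator of CHK1 activation, did not pass.

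**Figure D2:**
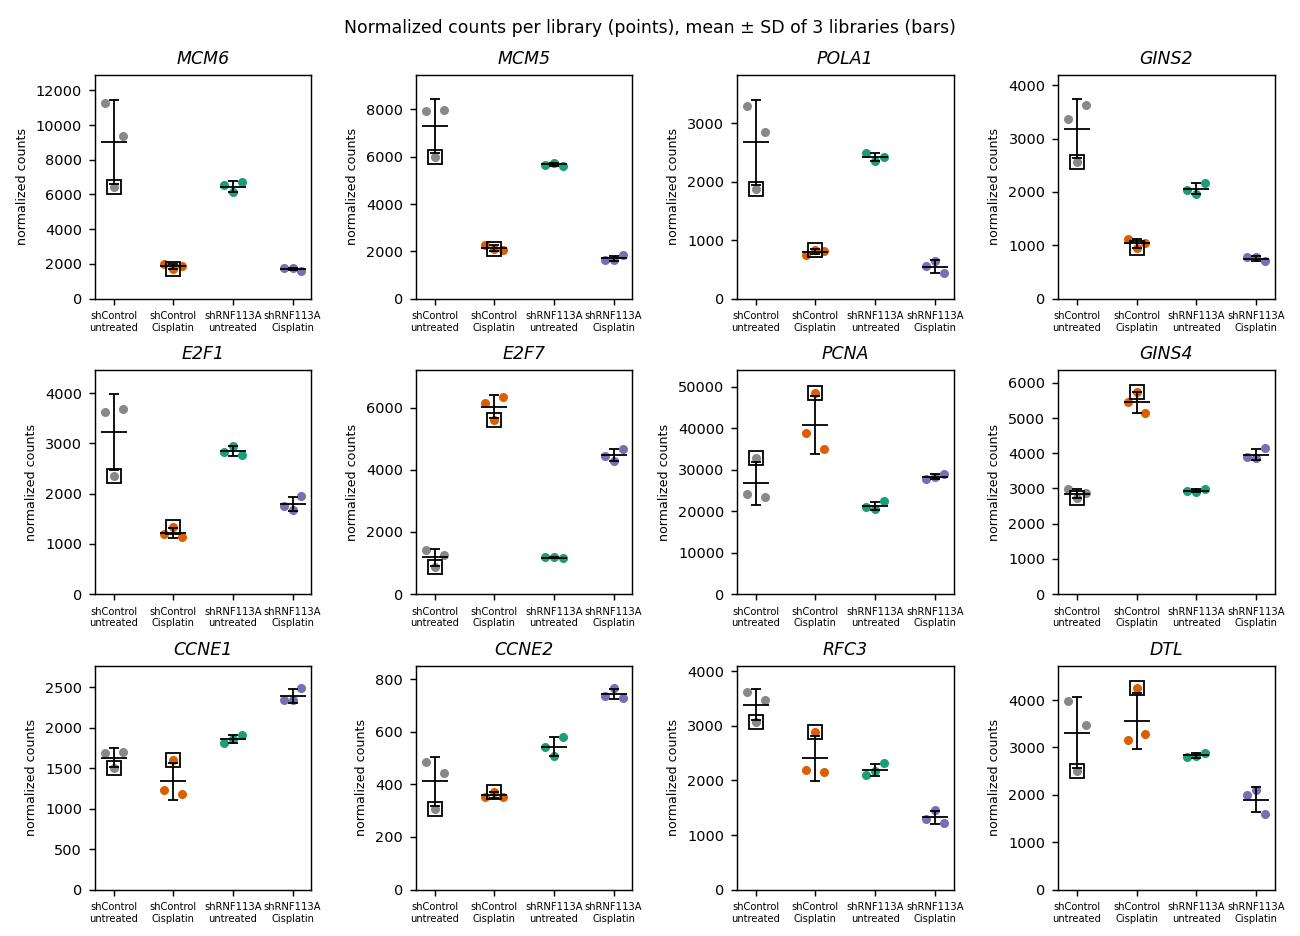
Normalized counts of 12 replication genes in each of the 12 libraries by condition (points, in replicate order), with the mean ± SD of 3 libraries; open squares mark the control libraries numbered 2. MCM6, MCM5, POLA1 and GINS2 are lower with Cisplatin in both cell types, E2F7, PCNA and GINS4 are higher, and CCNE2 is highest in Cisplatin-treated depleted cells.

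Within control cells alone 36 genes fell and 4 rose with Cisplatin, against 27% and 28% of all genes. RRM1 was the fourth that rose, from 11388, 9552 and 10110.3 to 12068, 11821 and 11124, by 0.19 ± 0.07 (SE, adjusted p = 0.0402), and it lost this call in 6 of the 12 fits without 1 library. Within depleted cells 36 fell and 5 rose, against 27.8% and 32.4% of all genes. E2F7, GINS4 and PCNA rose in both cell types, while CCNE1 and CCNE2 were the other two in depleted cells. Without both control libraries numbered 2, 41 fell and 3 rose in control cells and 40 fell and 5 rose in depleted cells, against 30% and 30.9%, and 33.3% and 38.2%, of all genes.

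Genes with an E2F word in their promoter fell in 15 of 22 cases and rose in 1, with a median of -0.73. Those without fell in 18 of 23 cases and rose in 1, with a median of -0.41. Neither the presence of a word nor its number was tested against the change. MCM6, with 4 matches, fell farthest of all 53 genes, and PCNA, with 1, rose.

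Gene length goes with the Cisplatin effect over all genes. Of genes spanning 100 kb or more, 68.2% fell, with a median of -0.69, and of those under 20 kb 17.2% fell, with a median of 0.23. In between, 25.9% fell from 20 to 50 kb and 38.4% from 50 to 100 kb. Of the replication genes, 13 of 19 under 20 kb fell (median -0.41), 17 of 22 from 20 to 50 kb (median -0.60), 5 of 8 from 50 to 100 kb (median -0.25) and 3 of 4 from 100 kb on (median -1.07). The last of these shares, 75%, was near that of all genes of this length. As a description, Spearman's rho between span and log2 fold change was -0.06 over the 53 genes and -0.42 over 13436 genes. POLA1 and PRIM2, which span 303068 and 333773 bp, are the longest of the set, and both fell more than 2-fold.

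A list of 37 further replication genes, none of them a member, was also followed. With Cisplatin 22 fell and 5 rose, against 32.1% and 34.8% of all genes, with a median of -0.30. DUT, which removes dUTP, had the largest fall. It read 3249, 3468 and 3143 in untreated and 1062, 1482 and 1133 in Cisplatin-treated control cells, a fall in the additive model of 1.22 ± 0.10 (SE, adjusted p = 1.18e-07).

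With depletion of RNF113A the largest fall was that of RFC3, and both cyclins E rose. In the additive model 20 fell and 5 rose, against 24% and 23.5% of all genes, and the median was -0.18 against -0.00 over all genes. None reached 2-fold in either direction, where 5.52% of all genes fell and 5.47% rose. Without both control libraries numbered 2, 31 fell and 5 rose, against 27.2% and 27.3% of all genes.

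**Figure D3:**
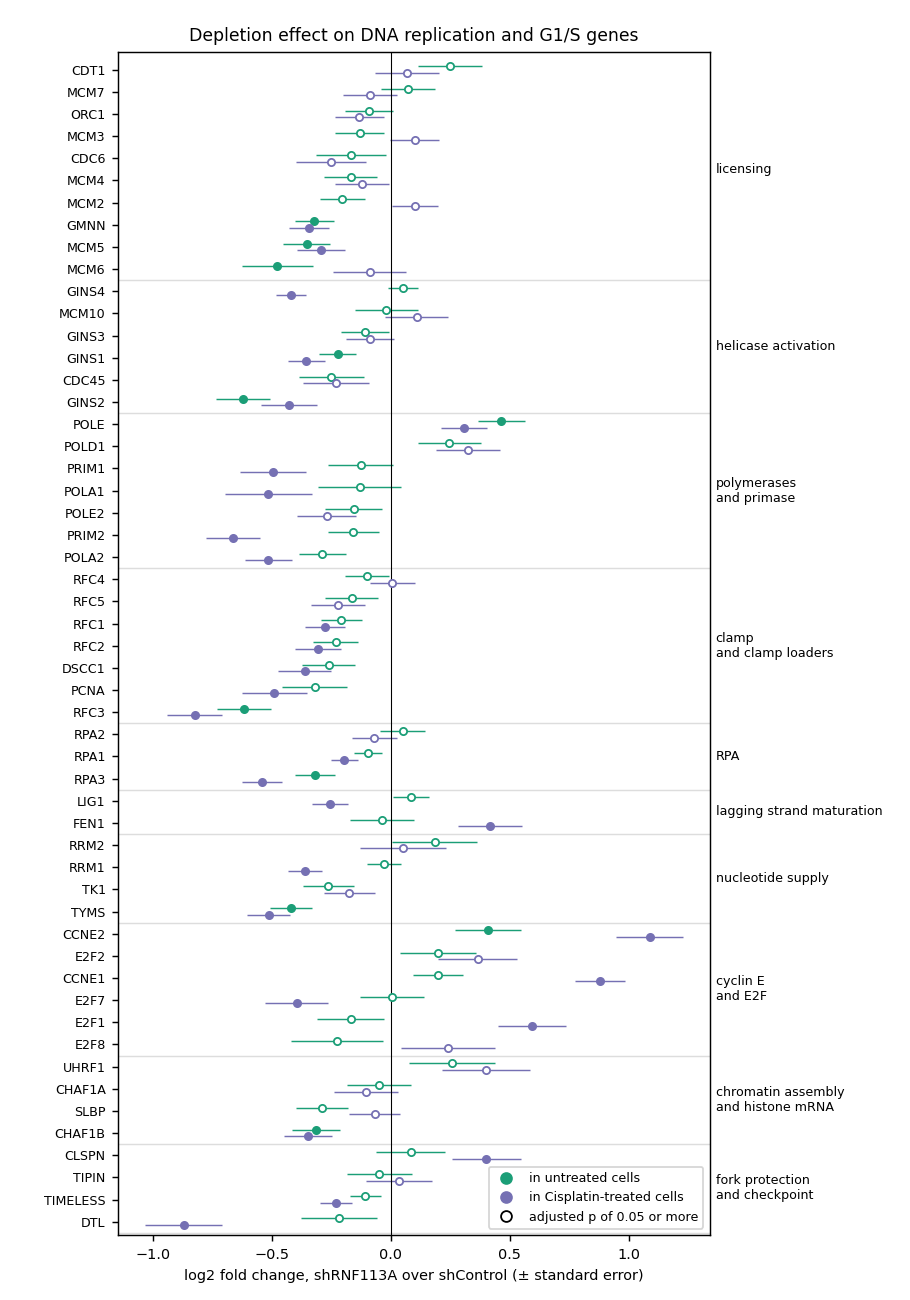
Log2 fold change of each of the 53 genes with shRNF113A over shControl, grouped by role, in untreated (green) and Cisplatin-treated cells (purple), with bars for the standard error and open circles where the adjusted p was 0.05 or more. CCNE2 and CCNE1 lie farthest to the right in Cisplatin-treated cells, with 1.09 and 0.88, and DTL and RFC3 farthest to the left.

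RFC3, the clamp loader subunit at chr13:34392186-34540695, plus strand, had the largest fall. It read 3625, 3074 and 3478 in untreated control cells, 2197, 2884 and 2147 in Cisplatin-treated control cells, 2098, 2173 and 2318 in untreated depleted cells and 1293, 1453 and 1227 in Cisplatin-treated depleted cells, and each depleted condition lay below the control condition of the same treatment. The additive fall was 0.72 ± 0.08 (SE, adjusted p = 2.5e-05). GINS2 fell by 0.53 ± 0.08 (SE, adjusted p = 0.000274), TYMS by 0.47 ± 0.06 (SE, adjusted p = 8.55e-05) and RPA3 by 0.43 ± 0.07 (SE, adjusted p = 0.000227). TYMS read 10655, 8714 and 10667 in untreated control cells, 9839, 10609 and 9185 in Cisplatin-treated control cells, 7275, 7089.7 and 7955 in untreated depleted cells and 6748, 6490.5 and 6973 in Cisplatin-treated depleted cells, with the 6 depleted libraries below the 6 control ones.

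POLA2, the accessory subunit of polymerase alpha, read 3114, 2405 and 3184 in untreated control and 2298, 2383 and 2398 in untreated depleted cells, and 2929, 3377 and 2959 and 2178, 2143 and 1997 with Cisplatin, a fall of 0.40 ± 0.08 (SE, adjusted p = 0.00101). GMNN (-0.33) and MCM5 (-0.32) were the 2 licensing genes of 10 that fell. CHAF1B fell by 0.33 ± 0.07 (SE, adjusted p = 0.00224) and PCNA by 0.40 ± 0.10 (SE, adjusted p = 0.00425). Without both control libraries numbered 2, the fall of PCNA was smaller, 0.25 ± 0.06 (SE, adjusted p = 0.00279). GMNN read 2263, 2075 and 2278 in untreated control and 1679, 1618 and 1960.3 in untreated depleted cells, which did not overlap, and CHAF1B read 2171, 1624 and 2054 and 1483, 1601 and 1587. DTL fell by 0.54 ± 0.14 (SE, adjusted p = 0.0072), with 3978, 2495 and 3473 in untreated control cells, 3165, 4246 and 3291 in Cisplatin-treated control cells, 2792, 2815 and 2887 in untreated depleted cells and 1993, 2099 and 1602 in Cisplatin-treated depleted cells. Its untreated libraries overlapped between control and depleted cells, and its Cisplatin-treated ones did not.

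The 5 genes that rose were CCNE2 (0.75 ± 0.14 SE, adjusted p = 0.000669), CCNE1 (0.54 ± 0.12 SE, adjusted p = 0.00255), POLE (0.39), UHRF1 (0.33) and POLD1 (0.29). CCNE2 read 484, 305 and 445 in untreated control cells, 351, 371 and 353 in Cisplatin-treated control cells, 542, 506 and 578 in untreated depleted cells and 734, 765 and 729 in Cisplatin-treated depleted cells. All depleted libraries were above all control libraries. POLE read 4804, 3702 and 4210.0 in untreated control cells against 5823, 6379 and 5212 in untreated depleted cells, and 3721, 3919.5 and 4005 against 4763, 4832 and 4449.9 with Cisplatin. UHRF1 lost its call in 9 of the 12 fits without 1 library, with an adjusted p of up to 0.128, and POLD1 in 5, with one of up to 0.0623. Without both control libraries numbered 2, UHRF1 did not pass and E2F2 did.

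In untreated cells alone 9 genes fell and 2 rose with depletion, against 14.6% and 12.8% of all genes. With both control libraries numbered 2 left out, 31 fell and 1 rose there, against 21.4% and 20.5% of all genes. Without untreated control library 2 alone 22 fell, and without untreated depleted library 2 alone 3 fell, with no share of all genes given for these fits. In Cisplatin-treated cells 23 fell and 6 rose, against 21.8% and 21.1% of all genes. DTL fell by 0.87 ± 0.16 (SE, adjusted p = 0.00119) and RFC3 by 0.82 ± 0.11 (SE, adjusted p = 0.000204), and CCNE2 rose by 1.09 ± 0.14 (SE, adjusted p = 0.000126), the only one of the 53 past 2-fold in this comparison. CCNE1, E2F1, FEN1, CLSPN and POLE were the other genes that rose, CCNE1 by 0.88 ± 0.10 (SE, adjusted p = 7.57e-05). FEN1 read 7734, 5222 and 7369.5 in untreated control cells, 5847, 4613 and 4992 in Cisplatin-treated control cells, 6396, 6423 and 6855 in untreated depleted cells and 6444, 6279 and 7395 in Cisplatin-treated depleted cells, and rose by 0.42 ± 0.13 (SE, adjusted p = 0.0243), a call lost in 5 of the 12 fits without 1 library. CLSPN lost its call in 10 of these fits, with an adjusted p of up to 0.163, and POLE in 5, with one of up to 0.141. Leaving out both control libraries numbered 2 gave 27 lower and 12 higher with Cisplatin, against 28.2% and 27.4% of all genes.

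Whether the effect of Cisplatin differed between control and depleted cells was tested as an interaction. It passed for 2 of the 53 genes, 1 higher and 1 lower, against 1.98% and 2.27% of all genes. CCNE1, at chr19:30302805-30315215, plus strand, read 1686, 1502 and 1706 in untreated control cells, 1226, 1599 and 1183 in Cisplatin-treated control cells, 1809.5, 1858 and 1905 in untreated depleted cells and 2344, 2342 and 2493 in Cisplatin-treated depleted cells. It fell with Cisplatin in control cells (-0.27 ± 0.10 SE, adjusted p = 0.0419) and rose in depleted cells (0.41 ± 0.10 SE, adjusted p = 0.00455), an interaction of 0.68 ± 0.15 (SE, adjusted p = 0.0256). The fall in control cells was itself lost in 10 of the 12 fits without 1 library. The interaction was also lost in 10 of the 12 fits without 1 library, with an adjusted p of up to 0.0804, and kept without either control library numbered 2. GINS4 rose by 0.95 in control cells and by 0.48 in depleted cells, an interaction of -0.47 ± 0.09 (SE, adjusted p = 0.0185). It was lost without replicate 1 of untreated depleted cells alone, with an adjusted p of 0.0568.

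Without both control libraries numbered 2 the interaction passed for 12 genes in the positive direction and 2 in the negative, against 7.76% and 9.24% of all genes. E2F1 then had 1.01, CCNE1 and CCNE2 both 0.88 and E2F8 0.82, followed by FEN1, MCM6, E2F2, MCM2, CLSPN, MCM10, SLBP and MCM3 at 0.53 to 0.38. GINS4 (-0.41) and LIG1 (-0.30) were negative. Leaving out untreated control library 2 alone gave 8 in the positive direction. E2F1 read 3636, 2350.3 and 3695 in untreated control cells, 1190.1, 1335 and 1138 in Cisplatin-treated control cells, 2821, 2956 and 2769.9 in untreated depleted cells and 1748, 1678 and 1953 in Cisplatin-treated depleted cells, and with all libraries its interaction was 0.76 ± 0.20 (SE, adjusted p = 0.0538). Replicate 2 was the lowest untreated control library and the highest Cisplatin-treated one.

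Reads in introns were taken as genic minus exonic read pairs, for the 51 of the 53 genes that had both among 19548 such genes. PRIM2 and UHRF1 were not in those tables, and FEN1 had fewer genic than exonic reads in every library and was left out, which leaves 50 genes tested of 11376. Over all genes the intronic share of genic reads was 4.17% to 6.86% in the other 9 libraries and 9.50% to 9.84% in the 3 Cisplatin-treated depleted ones, which were also the smallest. Read pairs not assigned to a gene were also most frequent there, at 21.8% to 22.6% against 14% to 18.9%. Depth, this share and the intronic share move together in that condition, and their part in the results that follow was not tested.

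**Figure D4:**
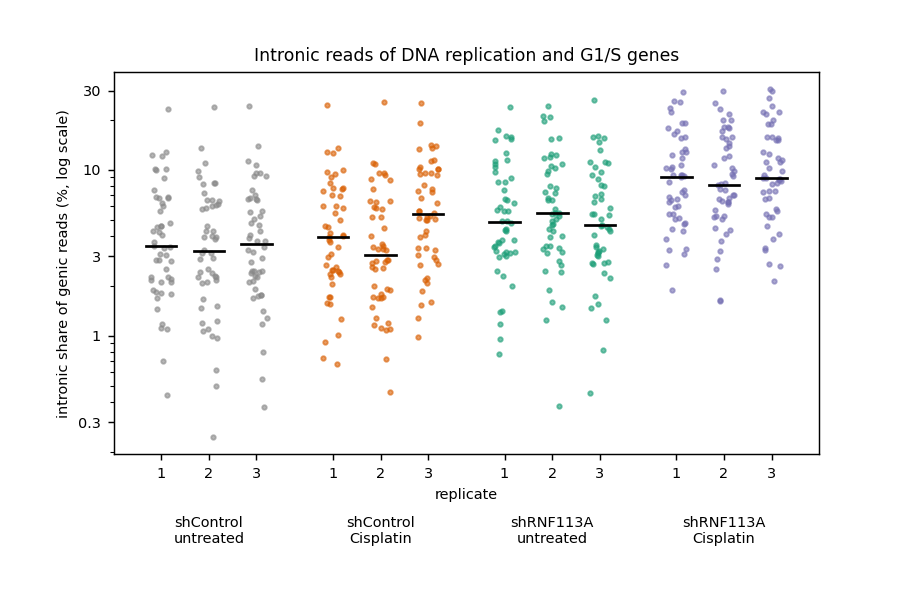
Intronic share of genic reads (percent, log scale) of 50 replication genes in each of the 12 libraries (points), with a bar at the median of each library. The medians of the 3 Cisplatin-treated depleted libraries lie above those of the other 9.

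With depletion in Cisplatin-treated cells the ratio of intronic to exonic reads rose in 49 of 50 genes, against 82.3% of all genes, with a median log2 change of 1.18 against 0.97. In untreated cells it rose in 28, against 28.4% of all genes, with a median of 0.63 against 0.47. With all libraries, no replication gene passed with a lower ratio in any of the 4 comparisons. MCM2, the helicase subunit with the largest change, had intronic shares, in percent of genic reads, of 1.45, 1.19 and 1.41 in untreated control cells, 0.918, 1.18 and 1.53 in Cisplatin-treated control cells, 2.28, 2.45 and 2.38 in untreated depleted cells and 4.37, 4.43 and 4.56 in Cisplatin-treated depleted cells. Depleted libraries lay above control libraries at both treatments, and the log2 change was 0.83 ± 0.19 (SE, adjusted p = 0.00788) without and 1.93 ± 0.20 (SE, adjusted p = 8.29e-07) with Cisplatin. POLD1 and E2F8 came next with Cisplatin, at 1.92 ± 0.43 (SE, adjusted p = 0.000416) and 1.87 ± 0.27 (SE, adjusted p = 8.99e-06). The intronic share of E2F8 in percent was 6.04, 6.53 and 5.58 in untreated control cells, 8.33, 5.16 and 10.1 in Cisplatin-treated control cells, 8.47, 11.9 and 9.7 in untreated depleted cells and 23.6, 18 and 29.8 in Cisplatin-treated depleted cells. POLD1 reached 1.55, 1.88 and 4.99 percent in Cisplatin-treated control and 10.2, 9.4 and 8.66 percent in Cisplatin-treated depleted cells. Both genes were higher in every depleted library with Cisplatin. POLD1 rested on 12 to 230 intronic reads in a library. In untreated control cells it had 86, 25 and 12 of them. Reads that kept its 569 bp intron alone, described below, numbered 95, 106 and 105 there. Genic minus exonic reads therefore miss intronic reads of POLD1, and its ratio and its rank are uncertain.

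In untreated cells POLD1, GMNN, PCNA and GINS4 had the largest changes, 1.44 ± 0.46 (SE, adjusted p = 0.0279), 0.99 ± 0.25 (SE, adjusted p = 0.011), 0.97 ± 0.24 (SE, adjusted p = 0.00968) and 0.96 ± 0.21 (SE, adjusted p = 0.00627). GMNN rose from 4.79, 3.83 and 4.64 percent to 8.47, 9.88 and 6.96 percent, with libraries apart, and PCNA from 2.11, 1.23 and 1.76 to 3.18, 3.45 and 3.02 percent. GINS4 rose from 3.11, 3.93 and 3.85 to 6.29, 7.78 and 6.37 percent, also without overlap. POLD1 read 2.85, 1.09 and 0.369 percent in untreated control and 2.44, 5.01 and 3.24 percent in untreated depleted cells, which overlapped. These shares rested on 86, 25 and 12 and on 75, 195 and 88 intronic reads, with the limit given above. The count of 28 changed to 5 without untreated depleted library 2, 7 without untreated control library 2, 11 without untreated depleted library 1 and 16 without untreated control library 3. The share of all genes in these fits is not given. The calls of POLD1, GMNN and PCNA were lost in 3, 2 and 2 of the 12 fits without 1 library. CLSPN was the one gene that did not pass with Cisplatin, with shares in percent of 23.3, 23.9 and 24 in untreated control cells, 24.6, 25.4 and 25.3 in Cisplatin-treated control cells, 24, 24.1 and 26.1 in untreated depleted cells and 25.4, 25.3 and 27 in Cisplatin-treated depleted cells, the highest share of the set in untreated control cells.

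Cisplatin raised the ratio in 37 of the 50 genes in depleted cells, against 65.2% of all genes, with a median of 0.92 against 0.76. GINS2, GINS3, TK1 and POLA1 had the largest changes, 2.48 ± 0.39 (SE, adjusted p = 1.8e-05), 2.06 ± 0.34 (SE, adjusted p = 3.21e-05), 1.69 ± 0.18 (SE, adjusted p = 1.09e-07) and 1.63 ± 0.27 (SE, adjusted p = 2.74e-05). GINS2 went from 0.777, 0.377 and 0.449 to 3.33, 1.64 and 4.1 percent, GINS3 from 1.41, 2.43 and 1.47 to 6.55, 6.43 and 8.14 percent and POLA1 from 5.66, 7.33 and 5.84 to 12.8, 15.6 and 24.3 percent. GINS3 also had the fourth largest change with depletion in Cisplatin-treated cells, 1.73 ± 0.33 (SE, adjusted p = 9.87e-05), from 2.5, 1.1 and 3.26 percent. In these genes no treated depleted library overlapped an untreated one, and GINS2 rested on 7 to 24 intronic reads in a library and GINS3 on 8 to 66. In control cells 4 genes passed, against 17.6% of all genes, with a median of 0.24 against 0.29. They were TK1 (1.05 ± 0.18 SE, adjusted p = 0.000214), CHAF1B (0.70 ± 0.22 SE, adjusted p = 0.0263), PCNA (0.68 ± 0.24 SE, adjusted p = 0.0483) and RFC2 (0.65 ± 0.21 SE, adjusted p = 0.0322). The share of TK1 in percent was 2.17, 2.25 and 2.43 in untreated control cells, 3.96, 4.44 and 5.49 in Cisplatin-treated control cells, 3.16, 3.49 and 2.76 in untreated depleted cells and 10.3, 9.84 and 8.3 in Cisplatin-treated depleted cells, rising with Cisplatin in both cell types. CHAF1B went from 4.57, 4.57 and 5.62 to 7, 6.41 and 10.1 percent and RFC2 from 2.82, 3.13 and 2.3 to 4.15, 3.42 and 5.19 percent, without overlap. PCNA reached 2.58, 1.72 and 4.06 percent, which overlapped the untreated libraries. Of these 4, TK1 alone kept its call in all 12 fits without 1 library. With the replicate number as a block, 7 genes passed in control cells, and 22 passed without Cisplatin-treated control library 2 but 1 without library 3. No share of all genes is given beside these counts.

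The interaction of Cisplatin and depletion on this ratio passed for 1 gene, MCM2, with 1.10 ± 0.28 (SE, adjusted p = 0.0332), against 3.5% of all genes. It was lost in 9 of the 12 fits without 1 library, with an adjusted p of up to 0.121. In replicate 3 of Cisplatin-treated control cells the intronic share over all genes was 6.86%, against 4.44% and 5.23% in the others of that condition. Without that library 34 of the 50 passed, with no share of all genes given for this fit. Without both control libraries numbered 2, the ratio rose in 48 genes for depletion with Cisplatin, 30 for depletion without it, 41 for Cisplatin in depleted cells, 13 (and fell in 1) for Cisplatin in control cells and 4 for the interaction. Over all genes the shares were then 76.9%, 31.7%, 73%, 32.3% and 8.89%.

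Intronic reads themselves were higher in depleted cells. Normalized intronic reads summed over the genes were 6687 to 9671 in untreated control cells, 6591 to 10083 in Cisplatin-treated control cells, 11162 to 12505 in untreated depleted cells and 14203 to 14955 in Cisplatin-treated depleted cells. Exonic reads were 216433 to 270626, 185594 to 211238, 219270 to 230492 and 163674 to 166172 in the same order. Intronic sums of the 6 depleted libraries were all above those of the 6 control libraries.

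Single introns were followed in a table of retained introns, in which the 3 libraries of a condition have no replicate number. The inclusion level is the share of transcripts that keep the intron, as estimated from reads of both forms and their effective lengths. The test was of the ratio of included to skipped reads, for 10 or 11 introns of 7 or 8 replication genes per comparison. Log2 changes of introns are therefore changes of this ratio and not of the inclusion level. The introns of MCM7, POLD1 and CDC45 listed next, 3 in number, passed in at least 1 comparison, all with more inclusion. These are printed as sense strand, exon in capitals and intron in lower case, with 15 bases of each flanking exon and for POLD1 only the first and last 30 bases of the intron. The introns lie at chr7:99696827-99696901 (MCM7, minus strand, 75 bp, intron 4 of 14), chr19:50919084-50919652 (POLD1, plus strand, 569 bp, intron 22 of 26) and chr22:19467543-19467680 (CDC45, plus strand, 138 bp, intron 1 of 18), in hg19, numbered in the canonical transcript.
MCM7: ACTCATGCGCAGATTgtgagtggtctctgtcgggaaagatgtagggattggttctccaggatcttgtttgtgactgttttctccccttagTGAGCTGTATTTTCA
POLD1, 5′ end: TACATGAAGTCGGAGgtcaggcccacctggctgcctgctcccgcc
POLD1, 3′ end: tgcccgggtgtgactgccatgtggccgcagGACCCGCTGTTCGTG
CDC45: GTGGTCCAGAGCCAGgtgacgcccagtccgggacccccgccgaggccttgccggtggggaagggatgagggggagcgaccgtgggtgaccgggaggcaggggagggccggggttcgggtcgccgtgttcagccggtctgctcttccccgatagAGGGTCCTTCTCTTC
All 3 begin with GT and end with AG, and the annotation holds both spliced and retained forms of each.

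The 75 bp intron of MCM7 had the smallest adjusted p. It was kept in 3.35%, 3.65% and 3.21% of transcripts in untreated control cells, 3.47%, 1.42% and 4.65% in Cisplatin-treated control cells, 5.22%, 4.94% and 4.84% in untreated depleted cells and 11.3%, 10.7% and 14.8% in Cisplatin-treated depleted cells. The last condition lay above all others, and it rested on 97 to 130 inclusion and 365 to 418 skipping reads per library. Depletion with Cisplatin changed the ratio of included to skipped reads by 2.16 ± 0.35 (SE, adjusted p = 2.37e-06), and Cisplatin in depleted cells by 1.40 ± 0.20 (SE, adjusted p = 9.51e-11), both on the log2 scale. Without Cisplatin the change with depletion was 0.58 ± 0.22 (SE, adjusted p = 0.0526). The neighbouring 185 bp intron of the same gene, intron 3, was kept in 7.49%, 4.51% and 5.68% of transcripts in Cisplatin-treated depleted cells and passed in no comparison.

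**Figure D5:**
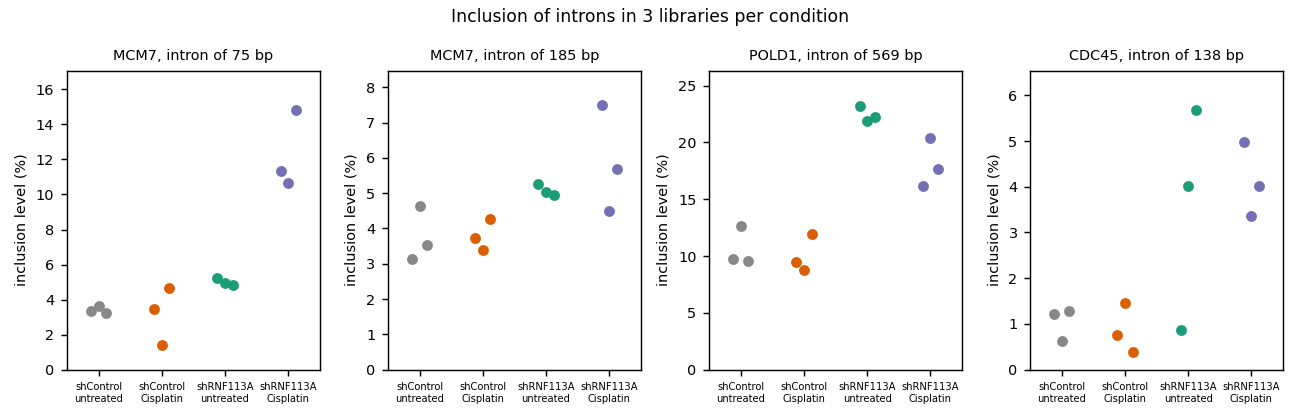
Inclusion level (percent) of 4 introns in the 3 libraries of each condition, each point 1 library in the order of the table. The 75 bp intron of MCM7 is highest in Cisplatin-treated depleted cells, the 569 bp intron of POLD1 is higher in both depleted conditions, and the 185 bp intron of MCM7 passed in no comparison.

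POLD1 kept its 569 bp intron in 9.73%, 12.7% and 9.53% of transcripts in untreated control cells and in 23.2%, 21.9% and 22.3% in untreated depleted cells, a log2 change of 1.30 ± 0.29 (SE, adjusted p = 0.000348). With Cisplatin it was 9.45%, 8.78% and 12% in control and 16.2%, 20.4% and 17.7% in depleted cells, a change of 0.98 ± 0.38 (SE, adjusted p = 0.0461). Control and depleted libraries were apart at both treatments, and the call with Cisplatin was lost in 5 of the 6 fits without 1 library, with an adjusted p of up to 0.199. CDC45 kept its first intron in 1.21%, 0.62% and 1.29% of transcripts in untreated control and 0.857%, 4.02% and 5.68% in untreated depleted cells, which overlapped. Its change was 1.62 ± 0.57 (SE, adjusted p = 0.0328), lost in 5 of the 6 fits without 1 library, with an adjusted p of up to 0.216. With Cisplatin CDC45 changed by 2.21 ± 0.74 (SE, adjusted p = 0.0183), from 0.748%, 1.45% and 0.38% to 4.97%, 3.35% and 4.01%, on 1 to 9 inclusion reads per library, a call lost in 3 of 6 such fits.

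In all, 2 of 10 member introns passed for depletion without Cisplatin, against 17.1% of 3434 introns with more inclusion, 3 of 11 for depletion with Cisplatin, against 25.4% of 3541, and 1 of 11 for Cisplatin in depleted cells, against 13.3% of 3486. None of 10 passed for Cisplatin in control cells, against 0.203% of 3448 with more inclusion. The members' shares were near those of all introns, so that MCM7, POLD1 and CDC45 are reported as single introns. Introns of RRM2, PRIM1, MCM10, TIMELESS, RFC5 and the 80 bp intron of POLD1 passed in no comparison. For the intron of RFC5 and the 592 bp intron of TIMELESS this says little. Both had 0 or 1 skipping reads in a library and inclusion levels of 93.7% to 100%, so that more inclusion could hardly be called. Both are among the introns tested.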

How the data were processed

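RNA from 12 libraries of A549 cells was sequenced as read pairs. After removal of rRNA, tRNA and mitochondrial reads and trimming to 73 nt by the authors, STAR 2.5.2b placed the reads on hg19, and the deposited counts per gene are STAR's, of which the column for reverse-stranded libraries was used. The authors also deposited HTSeq counts of reads in genes and in exons (Gencode v19) and an rMATS table of retained introns with inclusion and skipping counts and inclusion levels as a fraction. Columns of p-values and differences in that table hold the authors' comparisons and were not used. That table names no replicate.

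Genes were tested with edgeR 4.0.16 (R 4.3.3, filterByExpr, TMM, quasi-likelihood) in an additive model of drug and depletion, an interaction model and 4 single comparisons, with Benjamini-Hochberg adjustment over 15352 genes. DESeq2 1.42.0 gave size factors and an alternative. Ratios were tested in edgeR where at least 3 libraries had 10 or more intronic reads, and introns with 10 or more reads in every library. Each method was tested on simulated data, in which no library stood apart from the others of its condition. For single introns, changes were placed only where reads of both forms were more numerous than the inclusion reads of CDC45. Adjusted p-values below are from edgeR. Each ± SE is the absolute log2 change divided by the square root of the F statistic of its test. It rests on a spread estimate moderated across genes and covers these replicates alone.

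Members, lists and tests were chosen with earlier results of these data known. Values of every library are given for the largest change per role, the interaction calls, calls against the common direction, the 4 largest ratio changes and the called introns. Same-numbered control libraries deviated together over 9779 genes (r = 0.63, 0.73 and 0.48 between untreated and Cisplatin-treated), but libraries 1 and 3 did so with another number too (r up to 0.59 and 0.53), so that number 2 alone stands apart, and depleted ones did not all do so (0.41, -0.06 and 0.30). Alternatives were DESeq2, no TMM, other filters, unstranded counts, a replicate block and each library left out.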

Additional observations from a re-analysis of the deposited data

Results flagged for a closer look

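Cisplatin's effect differed between control and depleted cells, by the interaction test, for 2 replication genes in expression and 1 in its intronic to exonic ratio. GINS4 had an interaction of -0.47 and CCNE1 one of 0.68 on the log2 scale. For MCM2 the ratio had an interaction of 1.10. Over all genes the interaction passed for 1.98% higher and 2.27% lower in expression and for 3.5% in the ratio, so that these counts are near or below those of all genes. The adjusted p from edgeR was 0.0185, 0.0256 and 0.0332, and the calls were lost in 1, 10 and 9 of the 12 fits without 1 library.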

How the results depend on the processing

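Leaving out 1 library in turn left 35 to 40 genes lower and 3 higher with Cisplatin in the additive model. Among the smaller counts, depletion in the additive model gave 3 to 7 higher, depletion in untreated cells 3 to 22 lower and 1 to 2 higher, and depletion in Cisplatin-treated cells 15 to 26 lower and 3 to 8 higher. The interaction gave 0 to 8 higher and 0 to 2 lower. For the intronic to exonic ratio the range was 1 to 22 for Cisplatin in control cells, 5 to 36 for depletion in untreated cells and 0 to 34 for the interaction. Retained introns ranged from 1 to 3 for depletion without and 1 to 3 with Cisplatin. The interaction gave 3 higher and 5 lower with DESeq2, 2 higher with no TMM and 2 higher with at least 10 counts in every library. Depletion in untreated cells gave 1 higher with no filter on low counts and 1 with unstranded counts. With both control libraries numbered 2 left out there were 31 lower with depletion in the additive model, 12 higher and 2 lower for the interaction, 31 lower and 1 higher for depletion in untreated cells, 12 higher for depletion in Cisplatin-treated cells, and 13 and 4 for the ratio with Cisplatin in control cells and its interaction. The cause of these shifts was not tested. With the replicate number as a block, 7 genes passed for the ratio with Cisplatin in control cells and 2 for its interaction, and no other count moved by over 1.5 times. No single fitted change listed here reversed in direction, but the median interaction over the 53 genes turned from -0.06 to 0.10 with both control libraries numbered 2 left out. No paired analysis was possible because the retained-intron columns carry no replicate number; this holds for those introns alone.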

Other observations

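Genes outside the replication set moved as follows. Of 25 G2/M genes 23 fell and 1 rose with Cisplatin in the additive model (median -0.72), against 32.1% and 34.8% of all genes. With depletion 17 fell and 0 rose (median -0.27), against 24% and 23.5% of all genes. KIF20A, a mitotic kinesin, was the one that rose, by 0.36. All 8 p53-linked arrest genes rose with Cisplatin (median 2.93), against 34.8% of all genes. The interaction was negative and passed for 4 of them, against 2.27% of all genes. CDKN1A, the inhibitor of cyclin-dependent kinases, read 3357, 2568 and 4577 in untreated control cells, 67331, 79721 and 68231 in Cisplatin-treated control cells, 4441, 4444 and 4321 in untreated depleted cells and 37975, 37369 and 36483 in Cisplatin-treated depleted cells. It rose by 4.37 ± 0.18 (SE, adjusted p = 2.77e-09) in control and 3.13 ± 0.17 (SE, adjusted p = 2.44e-08) in depleted cells, an interaction of -1.25 ± 0.22 (SE, adjusted p = 0.0134). The intronic to exonic ratio rose with depletion in Cisplatin-treated cells in 24 of 24 G2/M genes and 8 of 8 p53-linked arrest genes, against 82.3% of all genes.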
